A study of Homo sapiens with 12 samples.

Results

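The 86 protein-coding genes described here encode the chains of collagens, laminins and integrins, and were chosen by symbol alone from the GENCODE annotation. They comprise 44 collagen chains (COL followed by a digit), 12 laminin chains (LAMA, LAMB or LAMC followed by a digit), 18 alpha and 8 beta integrins, and 4 genes that carry an integrin in their name without being one (ITGB1BP1, ITGB1BP2, ITGB3BP and ITGBL1). In all, 78 of the 86 had at least 1 UMI among the 32946 genes of the UMI tables. A UMI (unique molecular identifier) tags 1 captured RNA molecule, so that a UMI count is a count of captured molecules. The 8 members without a UMI in any table were COL8A2, COL11A2, COL21A1, ITGA10, ITGAD, ITGB2, ITGB7 and ITGBL1, and the SMART-seq cells had no read of them either.

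Collagens are built from 3 chains wound into a triple helix, some forming fibrils and others, such as collagen IV, the sheet of the basement membrane. Laminins join an alpha, a beta and a gamma chain into a cross-shaped molecule that lies beside collagen IV. Integrins are pairs of an alpha and a beta chain in the cell membrane that bind these matrix proteins outside and the actin cytoskeleton inside.

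The series tested LAST-seq, a single-cell assay that amplifies single-stranded RNA by in vitro transcription without first copying it into double-stranded DNA. HEK293T, a line derived from human embryonic kidney and kept in DMEM, gave 2 LAST-seq libraries of 10 cells each, of which library 1 held the A60 spike-in and library 2 the ERCC spike-in. The same line gave 2 CEL-seq2 libraries of 10 cells (CEL-seq2 copies RNA into double-stranded DNA before linear amplification), SMART-seq V4 cells, and wells of lysate or of 15 pg total RNA. eHAP1, a haploid human line kept in IMDM, gave a wild type (WT) table and an SCC4KO table (SCC4 KO below), each of pools of 80 indexed cells in 2 batches. The KO cells came from genotyped clones, each grown from a single cell after electroporation of a Cas9 ribonucleoprotein (how many clones were sequenced is not given in the sources used here), and the eHAP1 cells were sorted live as haploid G1 cells, whereas HEK293T cells were sorted live only. Both eHAP1 genotypes shared the growth conditions, which included 10-Deacetylbaccatin-III during subcloning. No source says that libraries of a group came from separate cultures, so p-values measure the spread between these libraries only.

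The LAST-seq cell libraries of HEK293T held 1424870 and 1509801 UMIs, and the CEL-seq2 ones 1554129 and 1455889. The WT batches held 7370620 UMIs in 73 cells and 12301326 in 75 cells, and the KO batches 6434247 in 77 cells and 11678465 in 76 cells. Of 21511 genes with a UMI in the WT table, 616 (2.86%) had UMIs in 1 batch only, and 122 of 20759 in the KO table (0.59%), against 25.76% of the genes in the pair of HEK293T LAST-seq libraries. Among genes of 1000 or more UMIs the squared difference between batches, divided by its sampling variance, had a median of 0.214 in WT and 0.119 in KO, where sampling alone gives 0.455 and the HEK293T LAST-seq pair gave 5.12. The eHAP1 batches thus lay closer together than independent counts would, and a member not listed in an eHAP1 table is called not listed below, not absent. In the fits it counts as 0, and no fold against it is given. In the wells of WT batch 2 the value 2 occurred 47976 times and the value 3 94216 times, and the other eHAP1 batches also had fewer values of 2 than of 3, whereas HEK293T LAST-seq library 1 had 15026 of 2 and 10578 of 3. The deposited eHAP1 values may thus not be untouched UMI counts, which touches every eHAP1 p-value and every count of eHAP1 cells with a UMI, and its part in the results was not tested. Both HEK293T LAST-seq libraries used the same 10 well barcodes, and the batches of a genotype reused those of their plates. Levels below are summed over the cells of a library and given as CPM, UMIs per 1000000 UMIs of that library. They are not scaled by gene length, so they are compared between groups for a gene and not between genes.

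As sets, the markers of the lines were not exclusive to either. The 5 HEK293T markers summed to 1001 to 1216 CPM in HEK293T LAST-seq, 625 to 631 in WT and 649 to 655 in KO, with UMIs for 4, 3 and 5 of them. CKB, the brain-type creatine kinase used as a HEK293T marker, had 926 and 1137 CPM in HEK293T LAST-seq and 583 and 593 in WT, and the kidney and nervous system factor PAX2 had 0 and 1.32 against 14.9 and 16.0. NEFL, however, had 29.5 and 9.94 CPM in HEK293T LAST-seq, no UMI in WT, and 7.93 and 14.5 CPM in KO. LIN28B had 45.6 and 68.2 in HEK293T LAST-seq and 26.5 and 22.3 in WT. NEFM had no UMI in HEK293T LAST-seq or WT, and 0.933 and 0.771 CPM in KO. Over the 7 haematopoietic markers the summed level was 6.32 to 11.3 CPM in HEK293T LAST-seq, 0.163 to 4.21 in WT and 1.63 to 3.11 in KO, with UMIs for 3, 1 and 2 of them and the leukocyte genes PTPRC, SPI1 and MPO without a UMI in WT and KO. The 6 fibroblast markers summed to 0.702 to 1.32 CPM in HEK293T, 5.83 to 12.5 in WT and 2.74 to 3.42 in KO, with UMIs for 2, 2 and 3 of them and the matrix proteoglycan LUM without a UMI in either line. SMART-seq cells of HEK293T, however, had 88 reads of LUM. The 5 kidney tubule markers summed to 9.12 to 9.94 in HEK293T, 0.325 to 0.950 in WT and 0.428 to 10.7 in KO, with UMIs for 2, 2 and 1 of them and UMOD without a UMI in either line. The part of other cell types in the results below was not tested.

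Stretches of DNA before 4 of the genes are shown because the comparisons described below turn on these genes. COL4A1 and COL4A2, the usual pair of chains in basement membrane collagen, start back to back on chromosome 13, and the first line is the 126 bases between their RefSeq starts (chr13:110307158-110307283, plus strand, build GRCh38.p14). The other lines are the 250 bases before the RefSeq starts of COL11A1 (chr1:103108523-103108772, minus strand), which was at 0 in HEK293T LAST-seq, and of LAMB1 (chr7:108003162-108003411, minus strand), which differed both between the lines and in the knockout. These RefSeq starts differ from the GENCODE gene positions given below. By GENCODE the first line lies inside COL4A2, the COL11A1 line inside COL11A1, and the LAMB1 line partly inside LAMB1. Capitals mark matches on either strand to the letters GGGCGG, known as the GC box, to CCAAT, named after its letters, and to the TATA box, searched as TATAAA.
COL4A1-COL4A2: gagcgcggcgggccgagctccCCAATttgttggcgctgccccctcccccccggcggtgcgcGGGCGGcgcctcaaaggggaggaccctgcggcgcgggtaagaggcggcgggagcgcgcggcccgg
COL11A1: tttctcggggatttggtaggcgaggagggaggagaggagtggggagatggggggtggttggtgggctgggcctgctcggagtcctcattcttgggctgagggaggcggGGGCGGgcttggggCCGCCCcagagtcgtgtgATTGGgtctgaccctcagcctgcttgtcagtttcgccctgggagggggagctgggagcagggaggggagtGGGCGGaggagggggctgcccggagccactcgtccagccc
LAMB1: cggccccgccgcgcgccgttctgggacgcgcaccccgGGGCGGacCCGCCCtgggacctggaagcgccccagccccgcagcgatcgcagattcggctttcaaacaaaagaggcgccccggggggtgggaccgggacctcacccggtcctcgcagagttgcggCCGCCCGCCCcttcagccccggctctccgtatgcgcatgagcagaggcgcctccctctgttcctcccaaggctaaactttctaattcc

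The run between COL4A1 and COL4A2 held 1 match of GGGCGG and 1 of CCAAT. COL11A1 held 3 and 1, and LAMB1 held 4 and 0, of which an overlapping pair shares bases. TATAAA was in none of these windows. Of 35116 RefSeq promoter entries, 42.6% held GGGCGG, 32.0% CCAAT and 10.7% TATAAA in the 250 bases before the start, and 34.6%, 21.1% and 5.9% in the last 126 bases. Of the 86 members, 62 had an entry in the RefSeq promoter table.

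The first comparison asked how the matrix and adhesion genes of HEK293T differ from those of eHAP1 WT. HEK293T carried the basement membrane pair COL4A1 and COL4A2, which was not listed in WT, together with more LAMA1 and LAMB1. WT carried the cartilage-type fibril chains COL2A1 and COL11A1, of which HEK293T had no UMI, together with more COL27A1 and COL6A1. Of the 43 members that passed the filter on low counts, 7 were higher in HEK293T, 8 were lower and 28 did not pass 5% (edgeR quasi-likelihood test, Benjamini-Hochberg over 15049 genes). Of the 7, COL4A1, COL4A2 and COL14A1 were not listed in WT, so that their calls follow from the listing and only 4 rest on counts in both lines. Over all genes tested, 15.6% were called higher and 20.5% lower, 36.1% in either direction, against 34.9% of the tested members, so that the share of members called lay near that of all genes. The filter passes some members only through the group in which they are high. The median log2 difference was -0.19 over the members tested and -0.12 over all genes, and with total UMIs in place of TMM scaling it was 0.04 and 0.10. That scaling changed the share of calls that were higher from 43.3% to 56.6% over all genes, and the members called from 7 higher and 8 lower to 8 and 7.

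Among fibrillar collagens, COL2A1 (chr12:47972967-48004554, minus strand, GRCh38), the chain of the main cartilage fibril, had 0 UMIs in both HEK293T LAST-seq libraries and 78.1 and 77.3 CPM in the WT batches. All 75 WT cells of batch 2 and 71 of the 73 of batch 1 had a UMI of it. A count of 0 allows up to 3 UMIs over both HEK293T libraries, or 1.02 CPM, so the level was at least 75.9-fold lower in HEK293T (adjusted p = 1.49e-05 by edgeR). Such floors cover counting error only. COL11A1 (chr1:102876467-103108872, minus strand), a minor chain that assembles with collagen II, had 0 UMIs in both HEK293T libraries and 48.98 and 45.6 CPM in WT, at least 45.8-fold lower in HEK293T (adjusted p = 3.79e-05 by edgeR). In HEK293T cells measured by CEL-seq2, COL2A1 was again at 0 in both libraries, and COL11A1 had 0.643 CPM in 1 library and 0 in the other. COL27A1 (chr9:114155537-114312511, plus strand), another fibrillar chain of cartilage, had 37.9 and 28.5 CPM in HEK293T and 97.0 and 98.8 in WT, a log2 difference of -1.79 (SE 0.16, adjusted p = 0.000132 by edgeR). COL1A1, the main fibril chain of bone and skin, had 10.5 and 9.94 in HEK293T and 3.66 and 4.39 in WT, which did not overlap but did not pass (adjusted p = 0.0775 by edgeR).

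The collagen IV chains are given pair by pair. COL4A1 (chr13:110148963-110307157, minus strand) had 9.83 and 11.9 CPM in HEK293T LAST-seq and COL4A2 (chr13:110305812-110513209, plus strand) 15.4 and 47.0. COL4A2 had a UMI in all 10 cells of each library. Both genes had UMIs in CEL-seq2 cells too, at 30.2 and 17.2 for COL4A1 and 61.1 and 38.5 for COL4A2. Neither was listed in WT, so no difference is given. COL4A3 and COL4A4, the pair of the kidney filter that starts 171 bases apart on chromosome 2, were at 0 in HEK293T LAST-seq. COL4A3 was not listed in WT either, while COL4A4 had 1.63 and 6.42 CPM there. Against both WT batches together, COL4A4 was at least 4.53-fold lower in HEK293T LAST-seq cells (adjusted p = 0.0345 by edgeR). WT batch 1 alone, however, lay close to the floor of 1.02 CPM. The LAST-seq libraries of 15 pg RNA and of lysate were also at 0 for COL4A4. HEK293T cells by CEL-seq2 had 1.93 and 0.687 CPM of COL4A4, the first of them above WT batch 1, and SMART-seq cells had 12 reads. COL4A5 and COL4A6, which start 341 bases apart on the X chromosome, were present in both lines. COL4A5 had 10.5 and 1.32 in HEK293T and 17.8 in both WT batches (adjusted p = 0.0559 by edgeR), and COL4A6 had 4.91 and 3.97 against 7.87 and 9.35 (adjusted p = 0.21 by edgeR). The cell libraries of both did not overlap between the lines. The HEK293T LAST-seq libraries of 15 pg RNA and of lysate, however, had 23.4 and 23.8 CPM of COL4A5, above WT, and 0 of COL4A6. By CEL-seq2, HEK293T cells had 9.01 and 3.43 of COL4A5 and 5.15 and 4.12 of COL4A6.

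Among the remaining collagens, COL6A1 (chr21:45981770-46005050, plus strand), a chain of the beaded microfibrils, had 47.7 and 23.2 CPM in HEK293T and 129 and 128 in WT, a log2 difference of -2.09 (SE 0.24, adjusted p = 0.000472 by edgeR) that was -2.70 without HEK293T library 1 and -1.59 without library 2. The HEK293T LAST-seq libraries of 15 pg RNA and of lysate had 90.2 and 45.1 CPM of COL6A1, both below WT. Its tandem neighbour COL6A2 had 7.72 and 31.8 in HEK293T, and both WT batches lay between these values. COL14A1, a collagen that sits on the surface of fibrils, had 4.21 and 7.95 in HEK293T and was not listed in WT. Without genes not listed in WT, 4 members remained higher and 8 lower, against 14.6% and 20.9% of 14785 genes.

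**Figure D1:**
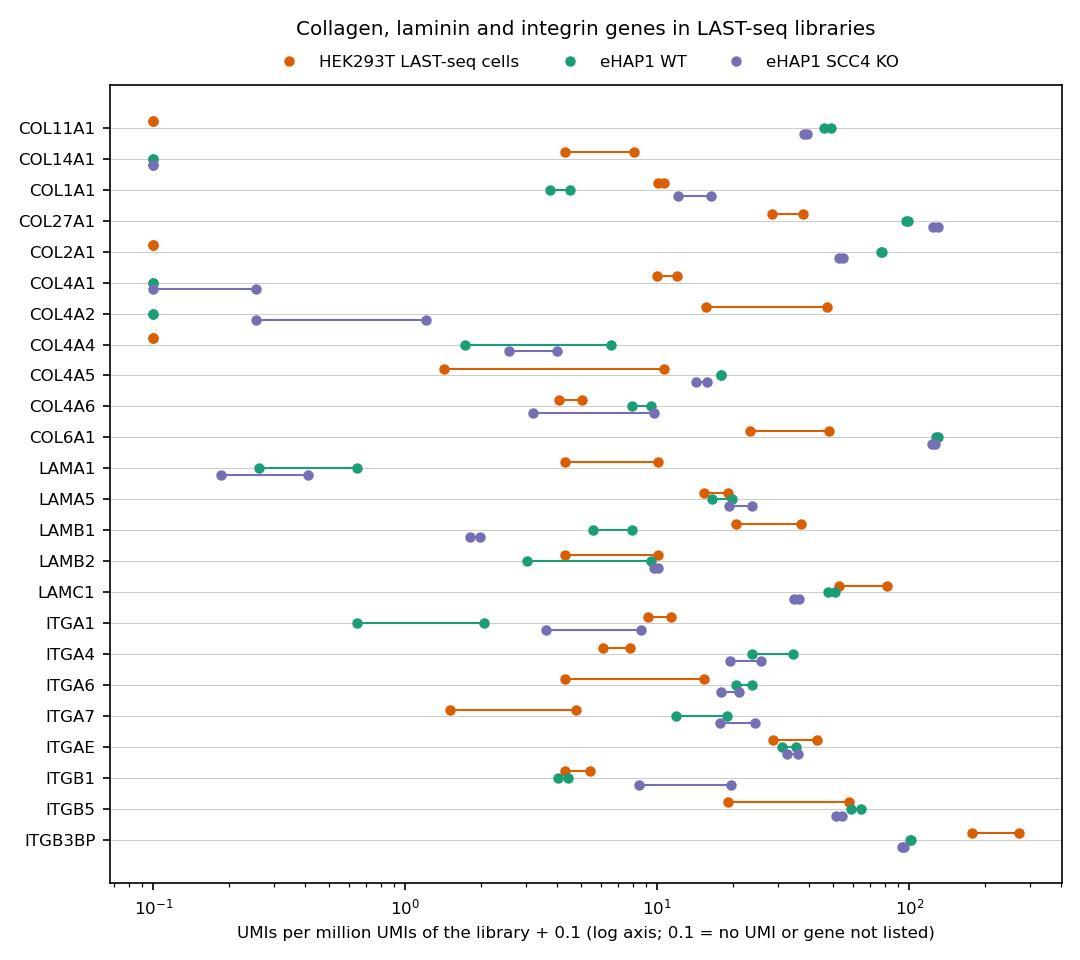
CPM plus 0.1 on a log axis for 24 collagen, laminin and integrin genes, with a point for each of the 2 HEK293T LAST-seq libraries (orange), 2 eHAP1 WT batches (green) and 2 SCC4 KO batches (violet) and a line joining the points of a group. COL2A1 and COL11A1 lie at the left edge in HEK293T, and COL4A1, COL4A2 and COL14A1 lie there in WT, where they were not listed.

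Of the 7 laminin chains tested, 2 were higher in HEK293T and 5 did not pass, or 28.6% called beside 36.1% of all genes. LAMA1 and LAMB1 are the alpha and beta chains of laminin-111, the form of early basement membranes. LAMA1 (chr18:6941742-7117797, minus strand) had 4.21 and 9.94 CPM in HEK293T and 0.543 and 0.163 in WT, a log2 difference of 4.13 (SE 1.05, adjusted p = 0.0186 by edgeR) that rests on 21 UMIs against 6. For LAMA1 it was 3.44 without HEK293T library 2, 5.01 without WT batch 1 and 3.46 without WT batch 2, and none of these passed. LAMB1 (chr7:107923799-108003213, minus strand) had 20.4 and 37.1 in HEK293T and 7.87 and 5.45 in WT, a log2 difference of 1.89 (SE 0.43, adjusted p = 0.0111 by edgeR). For LAMB1 the call was lost without HEK293T library 2 (log2 1.46) and without WT batch 2 (log2 1.68). LAMC1 (chr1:183023420-183145592, plus strand), the gamma chain that most laminins share, had 81.4 and 52.3 in HEK293T and 50.6 and 47.6 in WT, which did not pass (adjusted p = 0.418 by edgeR). LAMA5, the alpha chain of most adult basement membranes, had 18.9 and 15.2 in HEK293T and 16.4 and 19.7 in WT, and LAMB2, the beta chain that replaces LAMB1 in later laminins, 4.21 and 9.94 against 9.36 and 2.93. Both overlapped between the lines.

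Of the 13 alpha integrins tested, 1 was higher in HEK293T, 3 were lower and 9 did not pass, or 30.8% called beside 36.1% of all genes. ITGA1 (chr5:52787916-52959209, plus strand), the alpha chain of a collagen receptor, had 9.12 and 11.3 CPM in HEK293T and 0.543 and 1.95 in WT, a log2 difference of 2.72 (SE 0.81, adjusted p = 0.0332 by edgeR). For ITGA1 it was 3.997 without WT batch 2, 2.10 without WT batch 1 and 2.64 without HEK293T library 2, and the last pair did not pass. LAST-seq of 15 pg HEK293T RNA had 15.3 CPM of ITGA1. LAST-seq of HEK293T lysate had 1.25 CPM of ITGA1, from 1 UMI, which lay between the WT batches. PELO lies inside ITGA1 on the same strand, and with another gene it shares 5.8% of the exonic bases of ITGA1, so reads of these bases cannot be assigned with certainty. ITGA4 (chr2:181457202-181538940, plus strand), whose receptors bind fibronectin and the adhesion molecule VCAM-1, had 7.72 and 5.96 in HEK293T and 23.6 and 34.4 in WT, a log2 difference of -2.32 (SE 0.38, adjusted p = 0.0027 by edgeR). Of its exonic bases 26.4% overlap CERKL on the other strand, and the strand setting of the counting is not given in the sources used here. ITGAE, the alpha chain of a receptor for E-cadherin, had 28.8 and 43.1 in HEK293T, 35.5 and 31.1 in WT and 32.5 and 36.0 in KO, ranges that overlapped. The laminin receptor chains ITGA7 and ITGA6 were also lower in HEK293T cells by LAST-seq. ITGA7 had 1.40 and 4.64 against 18.9 and 11.7, a log2 difference of -2.52 (SE 0.54, adjusted p = 0.00912 by edgeR) that was -1.92 without HEK293T library 1 and -3.57 without library 2, and did not pass without WT batch 1 (-2.21). In the library of 15 pg HEK293T RNA, however, ITGA7 had 27.1 CPM, above both WT batches, and by CEL-seq2 cells had 1.93 and 3.43. ITGA6 had 4.21 and 15.2 against 23.6 and 20.5, a log2 difference of -1.39 (SE 0.44, adjusted p = 0.043 by edgeR). For ITGA6 it was -2.54 without HEK293T library 2, and the call was lost without HEK293T library 1 (-0.75), WT batch 1 (-1.35) or WT batch 2 (-1.46). By CEL-seq2 the same line had 32.8 and 22.7 CPM of ITGA6.

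Of the 8 beta integrins, 3 were tested by edgeR and 0 were called, while 2 had an unadjusted p under 0.05 and DESeq2 also called 0. ITGB1, the beta chain shared by most matrix receptors, had 4.21 and 5.30 CPM in HEK293T and 3.93 and 4.31 in WT. ITGB5, a partner of the alpha V chain, had 18.9 and 57.6 against 58.7 and 64.2, a log2 difference of -0.90 (SE 0.34, adjusted p = 0.07 by edgeR), and the groups did not overlap. ITGB8, another partner of alpha V, had 2 UMIs in HEK293T and 112 in WT, 8.35-fold lower in HEK293T with a 95% counting interval of 2.26 to 69.8, and did not pass (adjusted p = 0.0624 by edgeR). ITGB4, the beta chain of hemidesmosomes, had 0 and 1.32 CPM in HEK293T and 1.36 and 0.650 in WT. ITGB3, the platelet beta chain, had 0.702 and 0 in HEK293T and was not listed in WT, and ITGB6, an epithelial partner of alpha V, had 0 in both HEK293T libraries and 0.136 and 0.244 in WT. ITGB2 and ITGB7, the beta chains of leukocyte integrins, had no UMI in any table.

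Of the genes only named after integrins, ITGB3BP (chr1:63440770-63593721, minus strand), which encodes the kinetochore protein CENP-R, had 177 and 272 CPM in HEK293T and 101 and 100.1 in WT, a log2 difference of 0.93 (SE 0.16, adjusted p = 0.00297 by edgeR). ITGB1BP1, whose product binds the tail of the beta 1 chain, had 259 and 360 against 259 and 262 (adjusted p = 0.909 by edgeR). ASAP2 on the other strand overlaps 33.2% of the exonic bases of ITGB1BP1.

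**Figure D2:**
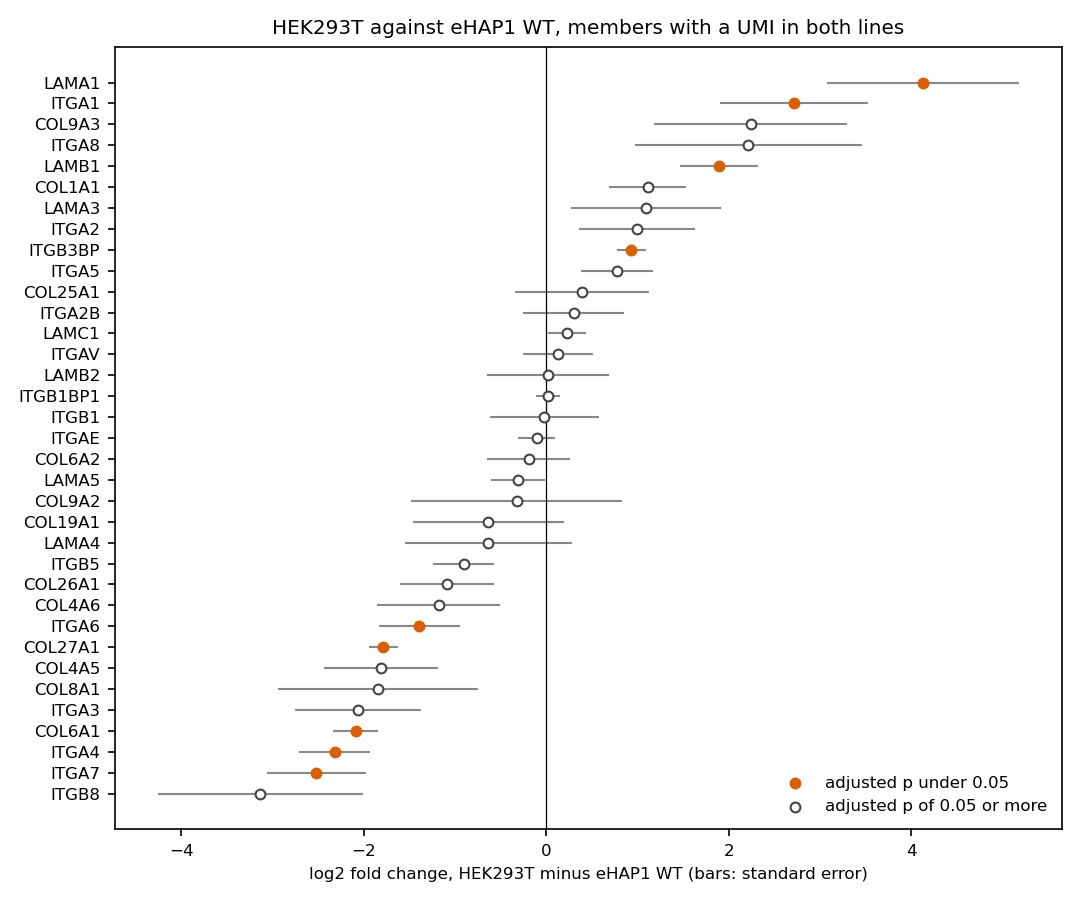
Log2 fold change of HEK293T minus eHAP1 WT with its standard error (bars) for the 35 tested members with a UMI in both lines, ordered by size. Filled points passed an adjusted p of 0.05 by edgeR, with LAMA1 the highest at 4.13, while the lowest, ITGB8, is open.

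Genes around these proteins, counted from lists of other matrix and adhesion genes, were called in both directions. The share called in either direction was 28.6% for collagen maturation, 58.8% for the adhesion core, 42.9% for matrix partners, 57.1% for proteases and inhibitors and 28.6% for other receptors, beside 36.1% of all genes (15.6% higher, 20.5% lower). Of 24 genes that fold, trim or cross-link collagen, 21 were tested, of which 1 was higher in HEK293T and 5 were lower, with a median log2 difference of -0.31. Of these lists the medians of the others were -0.45 for the adhesion core, -2.14 for matrix partners, -1.51 for other receptors and 0.72 for proteases and inhibitors. In each list the 3 genes of largest fitted difference are named, and the fitted size is not reliable for genes at 0. For collagen maturation these were PPIB, BMP1 and PCOLCE. PPIB, a helper of collagen folding, had 0 UMIs in HEK293T by LAST-seq and 1.63 and 1.46 CPM in WT, close to the floor of 1.02 CPM, while CEL-seq2 gave 3.22 and 6.87 CPM and SMART-seq 329 reads per 1000000 in HEK293T. BMP1, which trims procollagen ends, differed by -3.28 on the log2 scale (SE 0.63), and PCOLCE, which assists BMP1, by -2.10 (SE 0.61). BMP1 had 3.51 and 0.662 CPM against 20.6 and 14.5 in WT, and PCOLCE 2.11 and 1.99 against 7.19 and 7.97. The HEK293T LAST-seq libraries of 15 pg RNA and of lysate, however, had 7.21 and 15.0 of BMP1. They had 9.02 and 7.52 of PCOLCE, at or above the WT levels. Of 20 genes of the core that links integrins to actin, 17 were tested, of which 2 were higher and 8 lower. FERMT1, an integrin activator of epithelia, had 0 and 0.662 CPM in HEK293T and 142 in both WT batches (adjusted p = 4.01e-06 by edgeR). TNS3 had 4.21 and 7.29 against 63.1 and 59.7, and PARVA 9.83 and 19.9 against 1.49 and 1.54. Of 12 matrix partner proteins, 7 were tested, of which 3 were lower and 0 higher. FBN2 had 2.81 and 6.62 against 20.4 and 25.1, and fibronectin (FN1) 2.11 and 2.65 against 8.68 and 9.51, whereas FBN1, with 3.51 and 0 against 12.1 and 3.98, did not pass. By CEL-seq2, HEK293T cells had 23.2 and 54.9 CPM of FBN2, 21.2 and 15.8 of FN1 and 10.9 and 6.18 of FBN1. HEK293T lysate by CEL-seq2 had 8.28, 5.91 and 1.18 of them. LAST-seq of 15 pg HEK293T RNA had 22.5 of FBN2 and 5.41 of FBN1, each between the WT batches, and 8.12 of FN1. LAST-seq of HEK293T lysate had 11.3 of FBN2, 2.51 of FN1 and 0 of FBN1. Of 5 matrix partners tested between the assays, 3 were lower in LAST-seq and 0 higher, beside 14.8% and 11.3% of 11270 genes. The part of the assay in these line differences was not tested. Of 8 other matrix receptors, 7 were tested, of which 2 were lower. The proteoglycan SDC1 had 1.40 and 7.95 in HEK293T and 42.3 and 46.4 in WT (log2 -3.44, SE 0.41), whereas DDR2, at 0 in both HEK293T libraries and 2.17 and 0.650 in WT, and CD44, with 0 and 1.32 against 2.04 and 2.28, did not pass. Of 10 proteases and inhibitors, 7 were tested, of which 2 were higher and 2 lower. TIMP3 had 27.4 and 20.5 against 2.31 and 3.25, TIMP2 14.7 and 21.9 against 72.0 and 76.3, and MMP15, with 3.51 and 1.32 against 0.271 and 0.244, did not pass (adjusted p = 0.0507 by edgeR).

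The lines also differed in medium, in the G1 sort of eHAP1, in pool size (10 against 80 cells) and in spike-in, which cannot be told apart from the line. Counting both batches of an eHAP1 genotype as 1 library left 12 members called, 11 of them among the 15 above. The calls of LAMA1, LAMB1, ITGA1, ITGA6, COL4A4 and COL14A1 were each lost under 3 or more alternatives.

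How far these levels depend on the assay was read from LAST-seq against CEL-seq2 in the same line, with the LAST-seq libraries of the first comparison. LAST-seq held more of the 2 genes named after integrins and less of the beta 1 integrin. Of 31 members tested, 3 were higher in LAST-seq, 2 were lower and 26 did not pass, beside 11.3% higher and 14.8% lower over 11270 genes, or 26.1% in either direction. With total UMIs in place of TMM scaling, the median log2 difference over all genes was -0.41 in place of -0.05, the share of calls that were higher was 24.4% in place of 43.2%, and 3 members were higher and 4 lower. ITGB1 (chr10:32887273-33005792, minus strand) had 4.21 and 5.30 CPM by LAST-seq, against 32.8 and 61.8 by CEL-seq2, a log2 difference of -3.01 (SE 0.59, adjusted p = 0.00642 by edgeR) that was -2.35 without CEL-seq2 library 2. SMART-seq cells gave it 43.3 reads per 1000000. ITGA11, the alpha chain of a receptor for fibrillar collagens, was at 0 in both LAST-seq libraries and at 24.5 and 22.7 CPM in CEL-seq2, at least 23.1-fold lower in LAST-seq (adjusted p = 0.00328 by edgeR). SMART-seq cells had no read of ITGA11. The LAST-seq libraries of 15 pg RNA and of lysate had 5.41 and 0 CPM of it, and the CEL-seq2 library of lysate 11.8. ITGB1BP1 had 259 and 360 in LAST-seq against 89.4 and 91.4 (log2 2.08, SE 0.30), and ITGB3BP 177 and 272 against 83.6 and 92.7 (log2 1.65, SE 0.31). COL27A1 had 37.9 and 28.5 against 12.9 and 8.93 (log2 1.93, SE 0.49, adjusted p = 0.0177 by edgeR). The call of ITGB3BP was lost without LAST-seq library 2 (1.39) and that of COL27A1 without LAST-seq library 1 (1.69). COL4A2, at 15.4 and 47.0 against 61.1 and 38.5, overlapped between the assays.

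**Figure D3:**
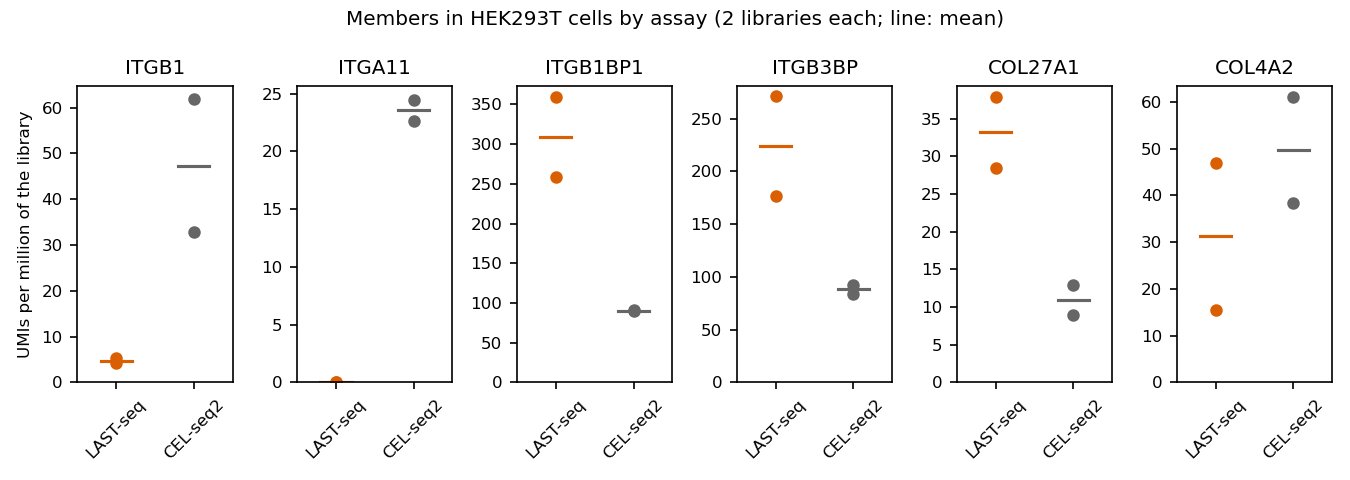
CPM, on linear axes from 0, for ITGB1, ITGA11, ITGB1BP1, ITGB3BP, COL27A1 and COL4A2 in the 2 LAST-seq (orange) and 2 CEL-seq2 (grey) libraries of HEK293T cells, with a line at each mean. ITGB1 and ITGA11 lie lower in LAST-seq, ITGB1BP1, ITGB3BP and COL27A1 lie higher, and COL4A2 overlaps.

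The last comparison asked how SCC4 KO differed from WT among these genes in each batch. The KO cells came from edited clones, and the paper describes taking cells from a clonal expansion. The genotype therefore cannot be told apart from the clone here. SCC4, also called MAU2, is part of the loader that puts cohesin on chromatin. MAU2 had 44.2 and 41.2 CPM in the WT batches and 9.17 and 14.5 in the KO batches, so that both KO batches lay below both WT batches. The HEK293T libraries of LAST-seq gave MAU2 91.9 and 83.5, those of CEL-seq2 53.4 and 24.7. This comparison shares its WT libraries with the first one.

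In SCC4 KO the fibril chain COL1A1 was higher, and COL2A1 and LAMB1 were lower, in both batches. Of the 43 members tested, 1 was called higher and 2 lower by edgeR, 7.0% in all, beside 5.92% higher and 6.68% lower, or 12.6% in either direction, of 15049 genes. The median log2 change was -0.10 over the members and 0.01 over all genes. COL1A1 (chr17:50184101-50201632, minus strand) had 3.66 and 4.39 CPM in WT and 11.97 and 16.3 in KO, a log2 change of 1.75 (SE 0.39, adjusted p = 0.0268 by edgeR). It had a UMI in 20 of 73 and 31 of 75 WT cells and in 43 of 77 and 68 of 76 KO cells. With each cell thinned to 50000 UMIs the share of cells was 13.9% and 23.3% in WT and 40.8% and 53.9% in KO. COL2A1 had 78.1 and 77.3 in WT and 52.7 and 54.6 in KO, a log2 change of -0.58 (SE 0.12, adjusted p = 0.0241 by edgeR). LAMB1 had 7.87 and 5.45 in WT and 1.71 and 1.88 in KO, a log2 change of -1.90 (SE 0.45, adjusted p = 0.0337 by edgeR). Thinned to 50000 UMIs, 26.4% and 24.7% of WT cells had a UMI of LAMB1 and 5.26% and 9.21% of KO cells.

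These calls depended on how the batches were counted. Leaving out any 1 of the WT or KO batches 1 or 2, so that a lone batch is assumed to vary like the other groups, left 0 members called by edgeR with 5 to 7 at an unadjusted p under 0.05, and 43 to 137 calls over all genes. With both batches of a genotype as 1 library, 0 members were called, 3 had an unadjusted p under 0.05 and 113 genes were called in all, while DESeq2 on the 6 libraries called 5 members. With only the 4 eHAP1 libraries in the fit, 5 members were higher and 8 lower, beside 13.3% and 16.2% of 15069 genes (29.4% in all). With the batch as a replicate block 8 were higher and 9 lower, beside 14.4% and 17.5% (31.9% in all).

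Past 2-fold in each batch, with no test, were 3 of the 49 members listed in both eHAP1 tables higher in KO (COL1A1, ITGB1 and COL9A3) and 1 lower (LAMB1), where 5.43% and 4.08% of 17513 genes were. With genes listed in 1 table only, 54 members had at least 10 UMIs over the 4 batches, and the rule then gave 6 higher and 3 lower, beside 8.03% and 7.71% of 18840 genes, 15.7% in either direction. The further 5 are no measured folds, since they follow from the listing and the 0.5 UMI added. They were COL4A2, COL4A3 and COL22A1, listed in KO only, and LAMC3 and ITGB1BP2, listed in WT only. The direction was the same in both batches for 63.0% of the 54 members and 72.9% of all genes. Where no fixed rule named a gene, here COL9A3, COL22A1, LAMC3 and ITGB1BP2, it is given because it passed 2-fold.

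ITGB1 had 3.93 and 4.31 CPM in WT and 8.39 and 19.5 in KO, with a log2 change of 1.71 (SE 0.50) that did not pass (adjusted p = 0.0643 by edgeR). ITGB1 passed with DESeq2 (adjusted p = 0.0441), without the filter on low counts (0.0269), with only the 4 eHAP1 libraries (0.0204, edgeR) and with the batch block (0.00189, edgeR), at log2 changes of 1.60 to 1.70. Within batches the log2 ratio was 1.08 and 2.17. All 76 KO cells of batch 2 had a UMI of ITGB1, against 23 of 77 in batch 1. COL9A3, a chain of the collagen on the surface of cartilage fibrils, had 2 and 9 UMIs in the WT batches and 19 and 35 in the KO batches, log2 ratios of 3.16 and 1.98, and did not pass (adjusted p = 0.151 by edgeR). COL4A2 had 1 and 13 UMIs in the KO batches, and COL4A1 1 and 0. LAMC3, a gamma chain of few tissues, had 8 and 49 UMIs in WT and was not listed in KO.

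Past 2-fold in opposite directions were 6 of the 54 members (11.11%), beside 3.36% of all genes. Batches were paired by number only, and deviations of WT and KO between batches had r = 0.0023 across 12442 genes. Opposite directions thus cannot be told apart from spread between the batches of a genotype. COL4A4, for example, had 1.63 and 6.42 CPM in WT and 3.89 and 2.48 in KO. The share over all genes was not matched to the low counts of these members. COL4A4, COL18A1 and LAMA2 were higher in KO in batch 1 and lower in batch 2, with log2 ratios of 1.22 and -1.36 for COL4A4, 1.78 and -1.08 for COL18A1 and 2.12 and -1.17 for LAMA2. COL9A1, COL24A1 and ITGB4 went the other way, with -1.39 and 1.66 for COL9A1, -2.84 and 1.153 for COL24A1 and -1.87 and 1.72 for ITGB4. LAMA2 encodes the laminin alpha chain of muscle, COL18A1 the source of endostatin. Each of the 6 had 79 or fewer UMIs in any batch.

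**Figure D4:**
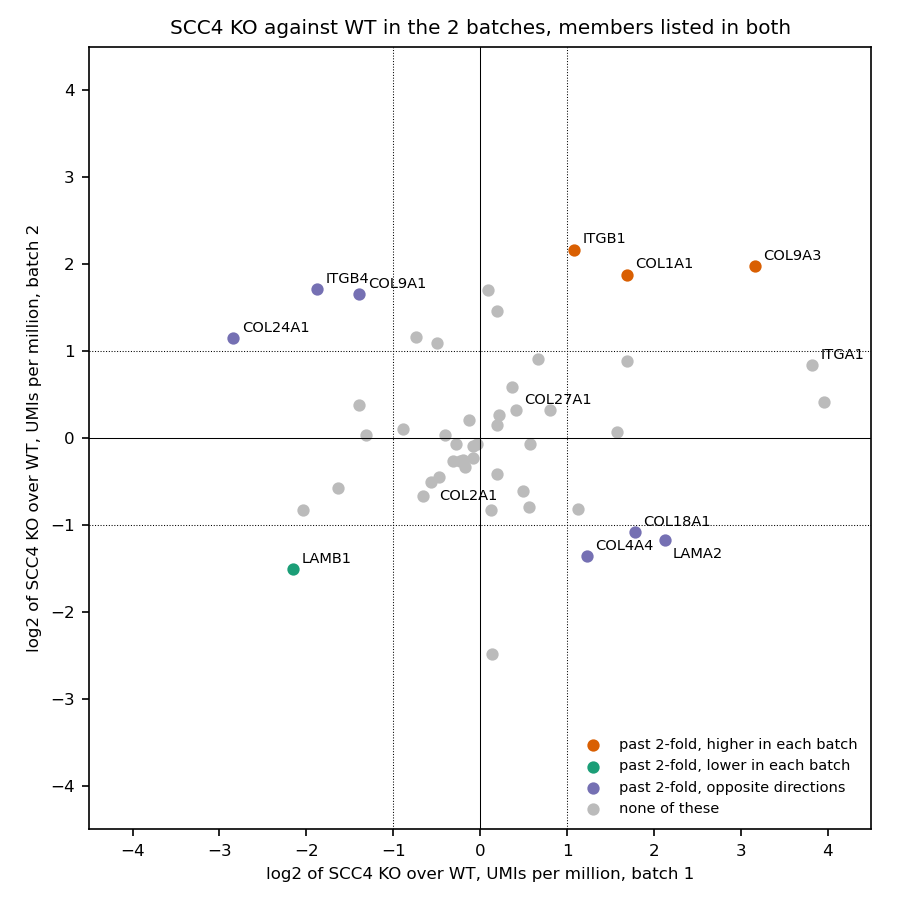
Log2 ratio of SCC4 KO over WT in CPM in batch 1 (x axis) and batch 2 (y axis) for the 49 members with at least 10 UMIs that are listed in both eHAP1 tables, with dotted lines at 2-fold. COL1A1, ITGB1 and COL9A3 lie past 2-fold upward in both batches and LAMB1 downward, and 6 members lie past 2-fold in opposite directions.

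Most other members named above stayed within 2-fold in both batches. COL11A1 had 48.98 and 45.6 CPM in WT and 39.3 and 37.9 in KO, LAMC1 50.6 and 47.6 against 36.5 and 34.9, and COL27A1 97.0 and 98.8 against 129 and 124. In each the genotypes did not overlap, and edgeR over the 6 libraries did not call them (adjusted p = 0.193 for COL11A1, 0.114 for LAMC1 and 0.111 for COL27A1). With only the 4 eHAP1 libraries edgeR called all 3 (adjusted p = 0.00778 for COL11A1, 0.00101 for LAMC1 and 0.00648 for COL27A1), and with the batch as a block as well. COL6A1 had 129 and 128 against 126 and 122, ITGB1BP1 259 and 262 against 221 and 219, and ITGB3BP 101 and 100.1 against 95.3 and 93.6. ITGB5 had 58.7 and 64.2 against 51.3 and 53.9, COL4A5 17.8 in both WT batches against 15.7 and 14.1, and LAMA5 16.4 and 19.7 against 19.1 and 23.7. The exceptions among members named above were COL4A6, LAMB2, ITGA1 and ITGA11. COL4A6, with 7.87 and 9.35 against 3.11 and 9.59, was 2.49-fold lower in KO in batch 1 only, and LAMB2, with 9.36 and 2.93 against 9.95 and 9.59, was 3.25-fold higher in batch 2 only. ITGA1, with 0.543 and 1.95 against 8.55 and 3.51, was 14.1-fold higher in batch 1 only, from 4 and 55 UMIs. ITGA11, with 6.24 and 2.60 against 6.84 and 0.428, was 5.61-fold lower in batch 2 only, from 32 and 5 UMIs. Neither integrin passed (adjusted p = 0.116 for ITGA1 and 0.901 for ITGA11 by edgeR). Of members not named above, COL1A2, COL9A2, COL26A1 and ITGAX were past 2-fold higher in batch 1 only. COL25A1, ITGA2 and ITGA2B were so in batch 2 only, and COL7A1, ITGA8 and LAMA4 were past 2-fold lower in batch 1 only. COL9A2 was 15.5-fold higher from 10 and 142 UMIs, and LAMA4 4.10-fold lower from 110 and 23. The main fit called none of these, and the batch block called COL9A2, COL26A1 and LAMA4. Of 13 alpha integrins tested by edgeR, 0 were called, with 1 at an unadjusted p under 0.05 and 0 called by DESeq2, whereas the batch block called ITGA1 (adjusted p = 0.0243) and ITGA4 (0.0226) of 12.

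In the other lists of matrix and adhesion genes, 1 of 21 tested collagen maturation genes was lower in KO, 3 of 17 genes of the adhesion core were higher and 1 lower, 1 of 7 matrix partners was higher and 1 of 7 proteases and inhibitors was higher, beside 5.92% higher and 6.68% lower of all genes. Each of these lists had 0 calls by edgeR when any 1 eHAP1 batch was left out (0 to 4 genes a list at an unadjusted p under 0.05) or when the batches of a genotype were counted as 1 library (0 genes), against 1 to 3 calls by DESeq2. The medians of the 5 lists lay between -0.35 and 0.05. LIMS1, a scaffold that joins integrin-linked kinase, had 16.0 and 15.4 CPM in WT and 28.6 and 31.0 in KO (log2 0.88, SE 0.19). FERMT1 had 142 in both WT batches against 223 and 212 (log2 0.57, SE 0.10), and FBLN1, a glycoprotein of elastic and basement membrane matrix, 135 and 136 against 192 and 189 (log2 0.44, SE 0.08). ZYX, the next largest change of the adhesion core, had 113 and 112 against 167 and 165 and did not pass (adjusted p = 0.0865 by edgeR). FBN1 and FBN2, chains of microfibrils, had 12.1 and 3.98 against 2.02 and 1.97, and 20.4 and 25.1 against 14.6 and 14.3, and did not pass. The largest changes of the maturation list, LOXL3, LOXL1 and BMP1, did not pass either, with BMP1 at 20.6 and 14.5 in WT and 5.75 and 6.17 in KO (adjusted p = 0.0648 by edgeR). Nor did MMP15 (log2 3.17, SE 0.89), MMP14 and ADAM10 among proteases. Of 7 other matrix receptors 0 were called by edgeR or DESeq2, with 3 at an unadjusted p under 0.05 by edgeR. Their largest changes were in CD44, with 2.04 and 2.28 against 0.155 and 0, DAG1, with 22.3 and 22.03 against 12.7 and 13.4, and BCAM, with 16.0 and 12.5 against 23.0 and 25.7.

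Across single eHAP1 cells, pairs of members had correlations around 0, as pairs of all genes had. In WT cells the median UMI count per cell was 8 in batch 1 and 11 in batch 2 for COL2A1, with a range from 0 to 29 and from 5 to 84, and in KO cells 4 and 8, with a range from 0 to 14 and from 2 to 22. Among members with at least 2 UMIs per cell on average, the median Spearman correlation of CPM over pairs was -0.03 (66 pairs, 73 cells) and 0.02 (105 pairs, 75 cells) in the WT batches, and -0.03 (66 pairs, 77 cells) and 0.01 (171 pairs, 76 cells) in the KO batches. Over all gene pairs of that level it was between 0.00 and 0.01. Cells of a batch share a library, and these values are a description only.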

How the data were processed

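The authors converted reads with bcl2fastq 2.20, trimmed them, and aligned and counted exonic reads or UMIs with zUMIs against GRCh38.p13 and GENCODE 33. The deposited values used here are counts: for LAST-seq and CEL-seq2 the UMIs of each gene in each well, for SMART-seq reads. The eHAP1 values are whole numbers but hold fewer values of 2 than of 3, so they may have been adjusted before deposit. Reads of the HEK293T assays were subsampled to equal depth by the authors, and the strand setting of the counting is not given in the sources used here. The authors applied ComBat-seq to the eHAP1 cells before burst fits, and whether the deposited counts already carry it is not given in the sources used here. Other read tables were not used here.

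UMIs were summed over the cells of a library, or of a batch as the cell names give it, and printed per 1000000 of that sum (CPM). Wells held medians of 80630 to 166467 UMIs by library, and a floor of 3 UMIs was taken over the libraries of a group. Differences were tested with edgeR 4.0.16 (R 4.3.3; TMM, filterByExpr, quasi-likelihood F test, Benjamini-Hochberg at 5%) over all genes, in 1 fit of the 6 LAST-seq cell libraries, with HEK293T, WT and KO as groups, or of the 4 HEK293T LAST-seq and CEL-seq2 libraries. DESeq2 1.42.0 and the other alternatives are in the closing section. Batch ratios paired the batches by number and had 0.5 UMI added. Members and lists were chosen with earlier results of these data known. Named were members called in either eHAP1 comparison, the 5 most abundant per group, the collagen IV chains, LAMA1, LAMA5, LAMB1, LAMB2, LAMC1, ITGB1 to ITGB8, members opposite between batches, and the 3 largest changes of each list. Other named members, such as ITGA11, COL6A2, LAMC3 and COL9A3, were chosen after their values were seen. Gene positions are from GENCODE 44 on GRCh38. The fits were tested on simulated data with 200 genes changed by 2-fold or, separately, by 4-fold: for HEK293T against WT, 66 genes of 2-fold and 121 of 4-fold change among 15049 were recovered, for KO against WT 69 and 131, and for LAST-seq against CEL-seq2, among 11270, 3 and 129.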

Additional observations from a re-analysis of the deposited data

How the results depend on the processing

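Members higher in HEK293T than in WT numbered 12 without the filter on low counts, and 4 with cells thinned to 50000 UMIs or with only genes listed in WT (chosen after seeing the data), against 7. Leaving out 1 library gave 4 to 8 higher, 6 to 10 lower, and, for SCC4 KO against WT, 0 in both directions. For SCC4 KO, members higher and lower, against 1 and 2, were 3 and 2 with DESeq2, 2 and 2 with total UMIs, 5 and 5 without the filter, 5 and 8 with only the 4 libraries, 3 and 1 with thinned cells, and 0 and 0 with batches of a genotype as 1 library (chosen after seeing the data). With the batch as a replicate block they were 8 and 9. The batch numbers shared little beyond a number: deviations of WT and KO between batches had r = 0.0023 across 12442 genes. Members past 2-fold in each batch, against 6 higher and 3 lower, were 9 and 5 at 1.5-fold, 3 and 2 with 5 UMIs added, 2 and 1 with at least 100 UMIs, and 3 and 1 among genes listed in both tables (chosen after seeing the data). Leaving out the 2 WT cells of over 600000 UMIs gave 6 and 3. LAST-seq against CEL-seq2 gave 4 lower with total UMIs and 6 higher without the filter, against 2 and 3, and leaving out 1 library gave 2 to 4 higher and 2 to 3 lower. No direction of a called member reversed under these alternatives, and of the values of single members 188 stayed on their side of the threshold and 42 lost their call. The cause of these differences was not tested.

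The floor of 3 UMIs over both HEK293T LAST-seq libraries is 1.02 CPM, and members under it were not measurable there. In the simulation of LAST-seq against CEL-seq2, 3 of the genes changed by 2-fold were recovered, so small differences between the assays could not be seen.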
